A study of Mus musculus with 12 samples.

Results

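The 90 genes described here encode subunits of the mitochondrial respiratory chain and of ATP synthase, together with the complex I assembly factors and subunit relatives that carry the same symbol stems. They were taken by name from the array's probe annotation, as every symbol that begins with Ndufa, Ndufb, Ndufc, Ndufs, Ndufv, Uqcr, Cox4 to Cox8 or Atp5, plus Sdha, Sdhb, Sdhc and Sdhd, and they make up 90 of the 18193 genes with a probe set of a single symbol. The rule used no measured difference, but the members were chosen with earlier results of these data known. Complex I contributed 42 members, complex II 4, complex III 8, complex IV 19 and complex V 17, and where a gene had several probe sets, the one with the highest average log2 signal stood for it. Of the 90 members, 86 passed the filter on low signals and were tested. The signals below are microarray intensities in MAS5 units, and they are compared between samples of one gene only, never between genes.

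RNA came from haematopoietic stem cells (HSCs), from which all blood lineages arise, purified by flow cytometry from mice. There were 4 groups of 3 biological replicates: GFP- and GFPhigh HSCs of wild-type mice, and GFP- and GFPhigh HSCs of NrasG12D/+ mice, which carry a mutant allele of the RAS GTPase gene Nras beside a wild-type allele and whose groups are called Nras below. The labels call GFP- HSCs cycling and GFPhigh HSCs quiescent. Mice of every group had doxycycline in their drinking water for 6 weeks and were followed for another 12 weeks without it before the cells were taken; the source of the GFP label, the way the Nras allele was brought in and any pooling of animals are not stated in the sources used here.

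The respiratory chain moves electrons from NADH (complex I) and succinate (complex II) through complex III and cytochrome c to oxygen (complex IV), and complexes I, III and IV pump protons that drive ATP synthesis by complex V. The members here are encoded in the nucleus, and the mitochondrial genome encodes the remaining subunits. Quiescent HSCs are known for a low rate of respiration and a reliance on glycolysis, and HSCs that enter division or differentiate raise their mitochondrial activity.

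A pair of the 12 arrays stood apart in ways that touch most results below, so the differences between the Nras populations are given with and without them. On the library labelled Nras GFPhigh replicate 2, 48 of the 86 tested members (55.8%) had their highest signal of the 12 arrays, against 16.7% of the 12085 tested genes. Transcripts of skeletal muscle fibres were abundant on that array. Of a list of 34 muscle fibre genes, written after these data were seen, 31 were highest there and 25 were at least 4-fold above each of the other 11 arrays. The summed signal of the 34 was 176645 there, against 1043 and 1690 in the other Nras GFPhigh libraries, 947 to 1930 in Nras GFP- libraries. In wild-type libraries it was 1579 to 4295 for GFPhigh and 1592 to 1714 for GFP-. Its defining genes Myh2, Tnnt3 and Acta1 read 23349, 20008 and 5984, whereas the highest Acta1 signal on the other arrays was 9.1; Ckm, another fibre gene, read only 31.7 there. The 4 muscle progenitor genes summed to 113 there and to 54 to 134 elsewhere. Summed granulocyte markers (16 on the array) were 65019 there and 47743 in Nras GFPhigh replicate 1, against 4144 to 16646 on the other 10 arrays, and the 8 erythroid markers summed to 11857 and 10469 on Nras GFPhigh replicates 2 and 1, against 379 to 6928. Monocyte and macrophage markers (9 on the array) summed to 11115 and 10886 on the same 2 arrays, against 3042 to 5138, and endothelial and stromal markers (16) to 11577 and 9844, against 2674 to 7727.

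On Nras GFP- replicate 1, 37 of 86 members (43%) had their lowest signal, against 20.4% of all tested genes. Of the members, 24 (27.9%) were at least 4-fold below the median of the other arrays, against 21.6% of genes: 11 of complex I, none of complex II, 5 of complex III, 4 of complex IV and 4 of complex V. Of these 24, 9 had several probe sets, and for 4 of the 9 every probe set was that low. On Nras GFPhigh replicate 1, 9 members (10.5%) lay that low, against 18.7% of genes. The HSC markers were present: of 14 on the array, such as Kit, Procr and Meis1, none was at or below the array's median signal on 10 of the arrays, and 1 was on each of the other two. In bulk RNA, fewer cells of a type and less RNA per cell cannot be told apart.

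No member passed an adjusted p of 0.05 in any of the 7 comparisons of the limma fit, which called 0% of the 12085 genes in 6 of them and 0.00827% (1 gene, no member) in Nras against wild-type over both populations. Beside this, the members at an unadjusted p under 0.05 were counted, each count to be read against the share of all genes. Between GFPhigh and GFP- HSCs of wild-type mice, 0 of 86 members reached it (2.2% of all genes). Between the same populations of Nras mice 22 members did, 17 higher and 5 lower in GFPhigh (12.2% of genes). Nras against wild-type gave 4 members in GFP- HSCs (1 higher, 3 lower; 4.39% of genes) and 10 in GFPhigh HSCs (7 higher, 3 lower; 8.29% of genes). The interaction, which asks whether the difference between GFPhigh and GFP- itself differs by genotype, gave 6 members (4 higher, 2 lower; 4.68% of genes). GFPhigh against GFP- over both genotypes gave 5 members (4 higher, 1 lower; 8.87% of genes), and Nras against wild-type over both populations gave 2 (both higher; 7.79% of genes).

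In wild-type mice the members' median difference between the populations was near 0 and near that of all genes. The median log2 difference, GFPhigh minus GFP-, was -0.014 over the 86 members, with 40 higher in GFPhigh, beside -0.031 over all genes. In Nras mice the median was 0.50, with 69 of 86 higher in GFPhigh, beside 0.082 and 53.2% of all genes. The members' median was -0.37 for Nras minus wild-type in GFP- HSCs (-0.17 over all genes) and 0.17 in GFPhigh HSCs (-0.090). For the interaction it was 0.51 (0.11). Median centring of the arrays moved the Nras population median to 0.14 and that of all genes to -0.28. These comparisons share groups, so their medians are not independent of each other.

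Without the pair of arrays that stood apart, an alternative added after seeing the data, the Nras differences were smaller. That follows in part from the choice of arrays, since the one removed from Nras GFPhigh has the highest member level of the 12 and the one removed from Nras GFP- the lowest, and the values are a description. The median of GFPhigh minus GFP- in Nras mice became -0.039, with 41 of 86 members higher, beside -0.055 and 47.9% of all genes. Leaving out only Nras GFPhigh replicate 2 gave 0.24 (56 members higher), beside 0.063 and 52.7% of all genes. Leaving out only Nras GFP- replicate 1 gave 0.22 (54 higher), beside -0.064 and 47.3% of all genes. Leaving out only Nras GFPhigh replicate 1, to which limma's array weights gave less weight (0.403) than to replicate 2 (0.503), gave 0.64 (71 higher). All genes there had a median of 0.16, with 55.8% higher. The medians of the genotype differences became 0.0064 in GFP- and -0.066 in GFPhigh HSCs, and that of the interaction -0.15. At an unadjusted p under 0.05, 14 members were past it between the Nras populations without the pair, 4 higher and 10 lower in GFPhigh (12% of genes), whereas with all arrays 17 were higher and 5 lower. The part that muscle or granulocyte transcripts play in the Nras GFPhigh values was not tested beyond leaving the array out.

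**Figure D1:**
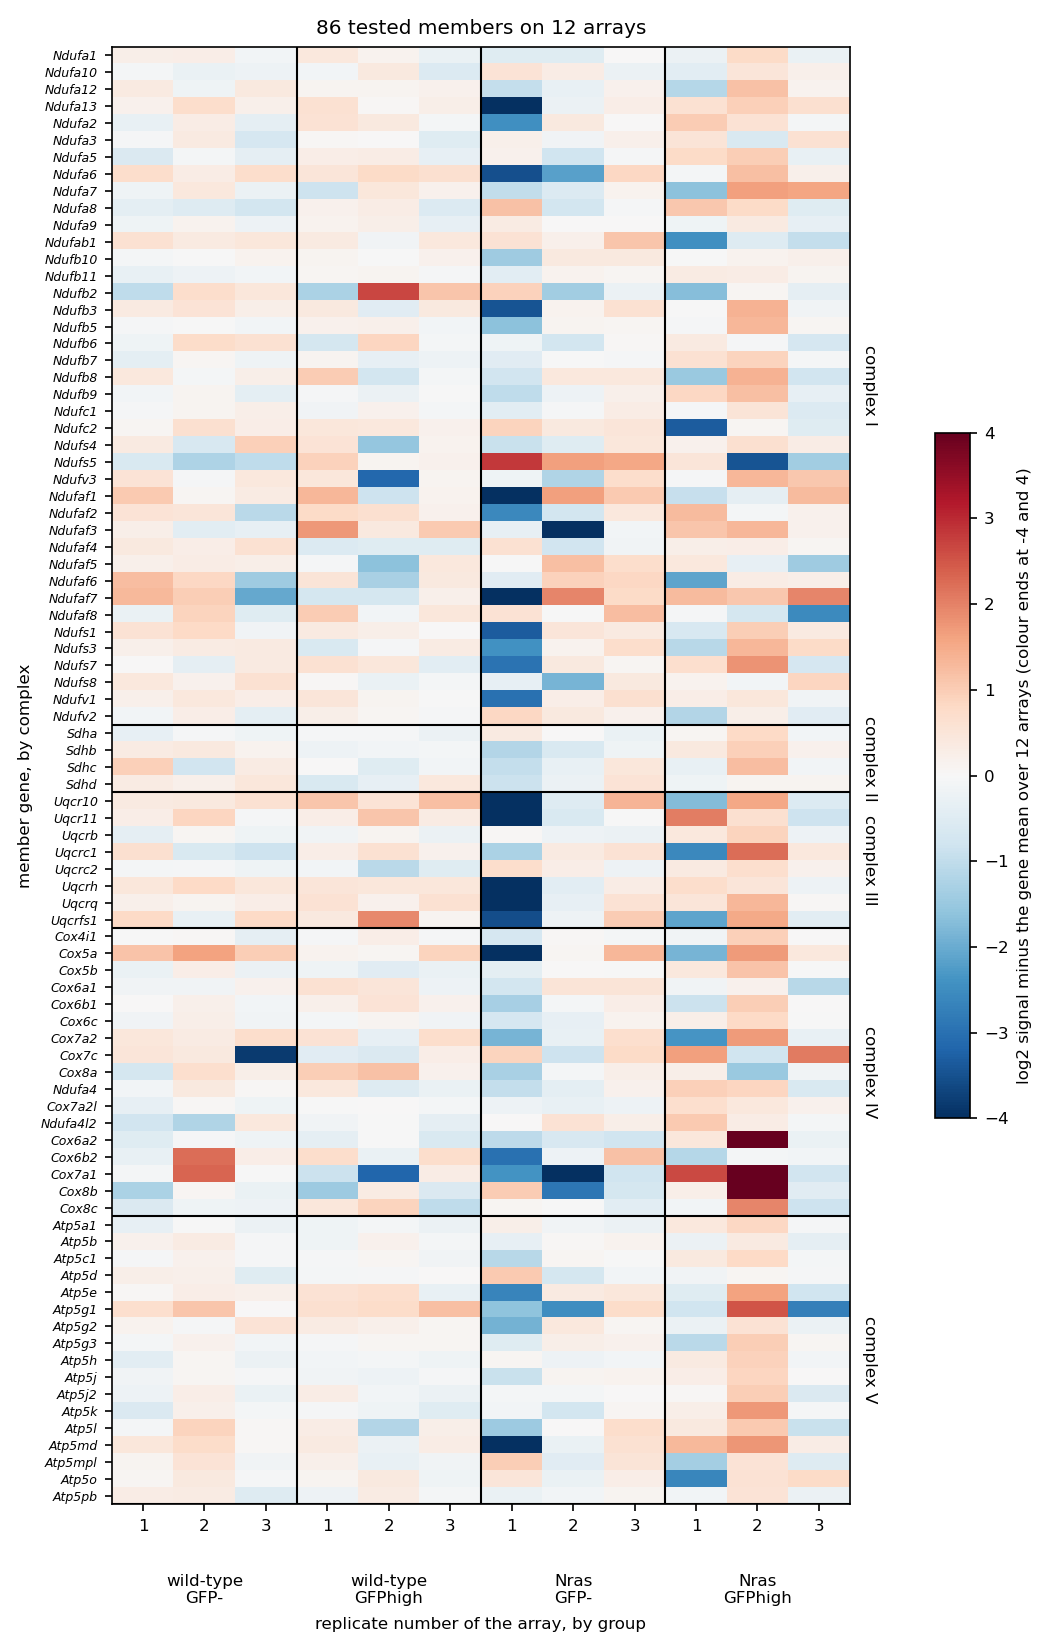
Heat map of the 86 tested members, grouped by complex, on the 12 arrays, as log2 signal minus the member's mean over all arrays. Nras GFPhigh replicate 2 holds the highest signal of 48 members and Nras GFP- replicate 1 the lowest of 37.

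The level of a complex on an array was summarised as the median, over its members, of log2 signal minus the member's mean over the 12 arrays. Over all 86 members this was 0.81 on Nras GFPhigh replicate 2 and -0.71 on Nras GFP- replicate 1, and between -0.13 and 0.22 on the other 10. As group means ± SD (n = 3) it was 0.067 ± 0.14 in wild-type GFP-, 0.07 ± 0.096 in wild-type GFPhigh, -0.21 ± 0.46 in Nras GFP- and 0.26 ± 0.48 in Nras GFPhigh. The SD within each Nras group was about as large as the distance between the means of the Nras groups. Complex III moved furthest, to -3.76 on Nras GFP- replicate 1, and complex II, at -0.91 there, and complex V, at -0.32, moved less.

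**Figure D2:**
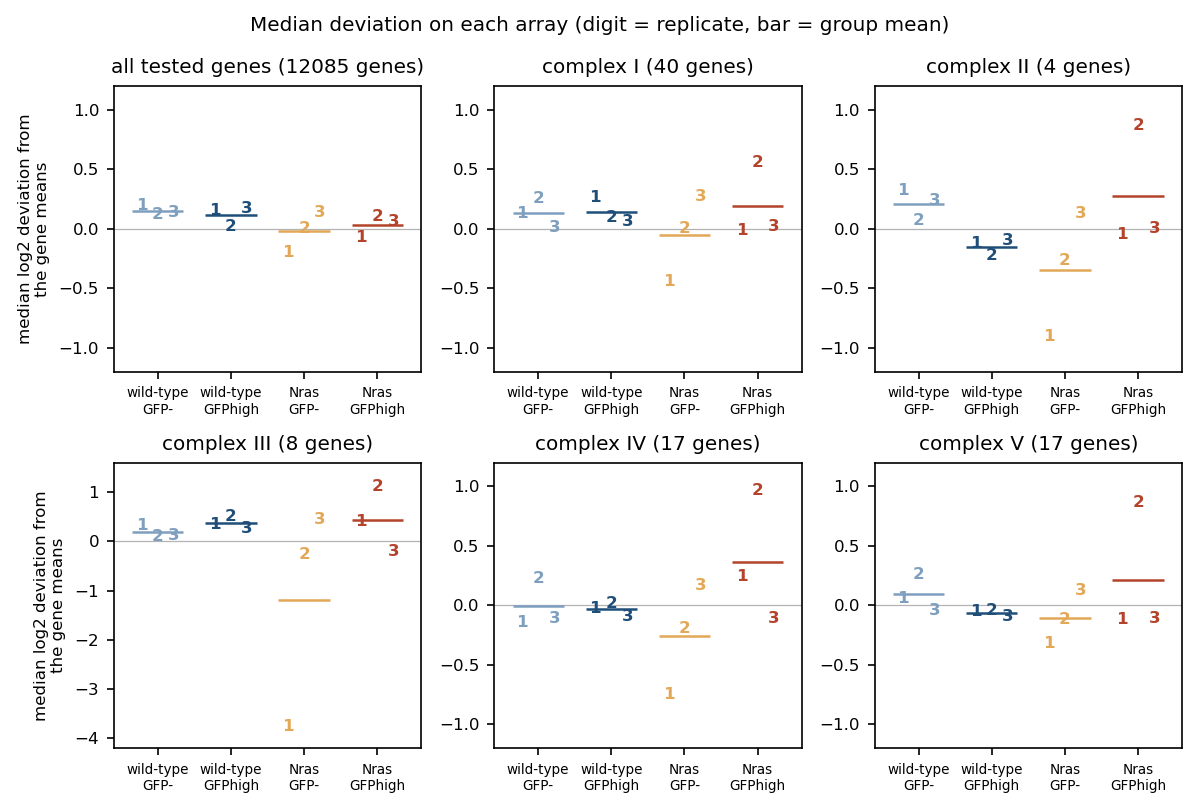
Median log2 deviation from the gene means on each of the 12 arrays, by group, for all tested genes and for the members of each complex. Digits are replicate numbers and bars are means of 3 replicates. Complex III has its own vertical scale. The lowest complex III point is Nras GFP- replicate 1 at -3.76, and the highest is Nras GFPhigh replicate 2 at 1.11.

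The members differed widely in how steady they were. The SD of log2 signal over the 12 arrays ran from 0.23 for Ndufb11, an accessory subunit of complex I, to 3.06 for Cox7a1, with a median of 0.71. Its median was 1.32 in complex III, 0.85 in complex I, 0.81 in complex IV, 0.49 in complex II and 0.48 in complex V. Ndufb11 read 4929.9, 5257 and 5656 for wild-type GFP-, 6432, 6522 and 5919 for wild-type GFPhigh, 4519, 6777 and 6385 for Nras GFP- and 7666, 7425 and 6507 for Nras GFPhigh. Its difference of 0.28 ± 0.13 between GFPhigh and GFP- over both genotypes (adjusted p = 0.551) was small, with 0.18 without the pair of arrays. After median centring, GFPhigh minus GFP- of Ndufb11 was 0.41 in wild-type and -0.059 in Nras. Atp5b read 5842, 6492 and 5060.1 for wild-type GFP-, 4616, 5802 and 4869.9 for wild-type GFPhigh, 4164, 5339 and 5660.2 for Nras GFP- and 4420.3, 6611 and 4077 for Nras GFPhigh. Atp5b is the catalytic beta subunit of ATP synthase, and its values overlapped between all groups.

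Complex I accepts electrons from NADH, and its 6 core members here lie in the arm that passes them on to ubiquinone. Ndufv1 holds the flavin that accepts electrons from NADH. Ndufv1 read 1897, 2176 and 1983 for wild-type GFP-, 2296, 1764 and 1615 for wild-type GFPhigh, 207, 1951 and 2555 for Nras GFP- and 1966, 2246 and 1493 for Nras GFPhigh. The low value was Nras GFP- replicate 1 alone, where all 3 of its probe sets were at least 4-fold below the median of the other arrays. Ndufs1, the largest iron-sulfur subunit, had 94.6 on that array and 613 to 1886 on the others. Ndufs3 read 256 there against 635 to 3455, and Ndufs7 208 against 1031 to 5678, although the second probe set of Ndufs7 was not low. Ndufs8, another iron-sulfur subunit, was lowest on Nras GFP- replicate 2, at 526. The differences of these 5 genes between Nras GFPhigh and Nras GFP- lay between 0.86 and 1.43, with standard errors of 0.52 to 0.89, and -0.58 to 1.23 without the pair of arrays.

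Ndufv2, an iron-sulfur subunit beside Ndufv1, ran the other way. Ndufv2 read 2897, 3734 and 2395 for wild-type GFP-, 3668, 3257 and 2983 for wild-type GFPhigh, 5481, 4036 and 3488 for Nras GFP- and 1377, 3635 and 2268 for Nras GFPhigh. The 3 Nras GFP- values reached from 3488 upward, and Nras GFPhigh replicate 2 and 1 array of each wild-type group lay among them, while the other Nras GFPhigh arrays lay below. GFPhigh minus GFP- in Nras was -0.92 ± 0.36 (adjusted p = 0.351), and -1.09 without the pair of arrays. In wild-type mice it was 0.15 ± 0.36.

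Of the 26 tested accessory subunits of complex I, the one of smallest p between the Nras populations was Ndufs5, a small intermembrane-space subunit. Ndufs5 read 115, 75.5 and 87.1 for wild-type GFP-, 337, 190 and 201 for wild-type GFPhigh, 1248, 557 and 518 for Nras GFP- and 249.5, 16.3 and 67.9 for Nras GFPhigh. All 3 Nras GFP- values lay above every other array, and Nras GFPhigh replicate 2 was the lowest of 12. GFPhigh minus GFP- was -3.45 ± 0.93 (adjusted p = 0.222) in Nras and 1.36 ± 0.93 (adjusted p = 1) in wild-type, and their difference, the interaction, was -4.81 ± 1.31 (adjusted p = 0.956). Nras minus wild-type was 2.96 ± 0.93 (adjusted p = 0.983) in GFP- HSCs. Ndufs5 has 1 probe set, and without the pair of arrays the Nras population difference was -2.04, the interaction -3.41 and the GFP- genotype difference 2.56.

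Ndufab1, the mitochondrial acyl carrier protein that is also a complex I subunit, read lowest in Nras GFPhigh. Ndufab1 read 1077, 911 and 974 for wild-type GFP-, 914, 643 and 954 for wild-type GFPhigh, 1064, 815 and 1522 for Nras GFP- and 129, 492 and 364 for Nras GFPhigh. Every Nras GFPhigh value was below every other array. The difference from Nras GFP- was -1.95 ± 0.62 (adjusted p = 0.272), and -2.37 without the pair of arrays. Its 5 probe sets did not move together, with differences from -2.32 to 1.94. The membrane-arm subunit Ndufc2 had -1.84 ± 0.65 in the same comparison and -2.36 without the pair, with 306 on Nras GFPhigh replicate 1 its lowest signal, and its 4 probe sets also ranged from -1.84 to 0.41.

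The higher differences among the accessory subunits of complex I leaned on the pair of arrays to different extents. Ndufb7 read 5287, 7351 and 6211 for wild-type GFP-, 7541, 5495 and 5993 for wild-type GFPhigh, 5144, 6905 and 6687 for Nras GFP- and 10543, 12887 and 6802 for Nras GFPhigh. Ndufb7, a membrane-arm subunit, was above all other arrays on Nras GFPhigh replicates 1 and 2, while replicate 3 was within the range of the rest. Its difference was 0.65 ± 0.23 (adjusted p = 0.329) between the Nras populations and 0.63 ± 0.23 (adjusted p = 0.526) between the genotypes in GFPhigh, with 0.32 and 0.43 without the pair. Ndufa13, also known as GRIM-19, read 181 on Nras GFP- replicate 1 and 2965 to 6720.4 on the others, so that its 2.15 ± 0.84 became 0.62 without the pair. Ndufa6 had 2 low Nras GFP- arrays, with 39.7 and 99.5 against 429 to 1045 on the other 10. Ndufa5 was 0.56 ± 0.24 higher in GFPhigh over both genotypes (adjusted p = 0.55) and 0.53 without the pair. Over all 40 tested members of complex I, GFPhigh minus GFP- had a median of -0.022 in wild-type (19 higher) and 0.53 in Nras (29 higher), and -0.11 (18 higher) without the pair. Ndufb1 and Ndufb4 did not pass the filter, with signals of 6.9 to 265 and 0.8 to 278.

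The 8 assembly factors Ndufaf1 to Ndufaf8 help build complex I and are absent from the finished enzyme. Ndufaf8 read 961, 2103 and 823 for wild-type GFP-, 2318, 1066 and 1555 for wild-type GFPhigh, 1716, 1129 and 2717 for Nras GFP- and 1108, 697 and 198 for Nras GFPhigh. Ndufaf8 was lowest in Nras GFPhigh, with -1.70 ± 0.69 (adjusted p = 0.367) against Nras GFP- and an interaction of -2.10 ± 0.97 (adjusted p = 0.956); without the pair these were -1.90 and -2.30. Ndufaf4 read 1685, 1549 and 1971 for wild-type GFP-, 878, 919.5 and 913 for wild-type GFPhigh, 1953, 764 and 1170.2 for Nras GFP- and 1514, 1541 and 1359 for Nras GFPhigh. The wild-type GFPhigh values of Ndufaf4 lay below all wild-type GFP- values, a difference of -0.93 ± 0.46 (adjusted p = 1), whereas the Nras populations overlapped, at 0.29 ± 0.46 and 0.60 without the pair. The interaction of Ndufaf4 was 1.22 ± 0.64 (adjusted p = 0.956), and 1.54 without the pair. Ndufaf3 read only 1.6 to 152 over all arrays, and since its 3 Nras GFP- signals and its 3 wild-type GFP- signals were at or below the median signal of their arrays, no fold is given for it. Ndufaf1, Ndufaf2 and Ndufaf7 read 14.2, 454 and 6.1 on Nras GFP- replicate 1, at least 4-fold below the median of the other arrays. Ndufaf5 and Ndufaf6 differed by -1.07 ± 0.66 and -0.96 ± 0.98 between the Nras populations, and by -1.45 and -1.81 without the pair.

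Complex II, succinate dehydrogenase, links the tricarboxylic acid cycle to the chain, and its 4 subunits are all core subunits. Its iron-sulfur subunit Sdhb had the smallest p of the 4 between the Nras populations. Sdhb read 1887, 1965 and 1664 for wild-type GFP-, 1314, 1387 and 1433 for wild-type GFPhigh, 669.8, 989.8 and 1336 for Nras GFP- and 1961, 2913 and 1714 for Nras GFPhigh. Each wild-type GFPhigh value was below each wild-type GFP- value, and in Nras the order was turned, with every GFPhigh value above every GFP- value. GFPhigh minus GFP- was -0.41 ± 0.42 (adjusted p = 1) in wild-type, 1.16 ± 0.42 (adjusted p = 0.336) in Nras and 1.57 ± 0.59 (adjusted p = 0.956) for the interaction. Without the pair of arrays the last 2 values were 0.67 and 1.09. The membrane anchor Sdhd had -0.50 ± 0.35 in wild-type and 0.20 ± 0.35 in Nras, and the anchor Sdhc -0.37 ± 0.60 and 0.56 ± 0.60; without the pair the Nras values turned to -0.19 and -0.26. Sdha, the flavoprotein, was the steadiest, at 7001 to 11395 on 11 arrays and 15217 on Nras GFPhigh replicate 2; its 0.21 ± 0.21 in Nras was 0.11 without the pair and turned to -0.21 after quantile normalization and to -0.16 after median centring. The median of complex II was -0.39 in wild-type (1 of 4 higher in GFPhigh), 0.38 in Nras (4 of 4) and -0.042 without the pair.

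Complex III passes electrons from ubiquinol to cytochrome c, and its Rieske iron-sulfur protein is Uqcrfs1. Uqcrfs1 read 1176, 550.4 and 1190.2 for wild-type GFP-, 898, 2543 and 727 for wild-type GFPhigh, 58.6, 587 and 1383 for Nras GFP- and 158, 1942 and 508 for Nras GFPhigh. Nras GFP- replicate 1 and Nras GFPhigh replicate 1 were the lowest arrays, and the other values of the 4 groups overlapped. Uqcrh, the hinge protein beside cytochrome c1, read 122 on Nras GFP- replicate 1, where both its probe sets were low, and 1440 to 3359 on the others. Its Nras minus wild-type difference in GFP- HSCs was -1.94 ± 0.82 (adjusted p = 0.983), and -0.63 without the pair. The small subunits Uqcr10, Uqcr11 and Uqcrq read 35.2, 15.5 and 37.1 on that array, against lowest values elsewhere of 215, 145 and 483. There 2 of 3 probe sets of Uqcr10, 2 of 4 of Uqcrq and the 1 of Uqcr11 were at least 4-fold below the median of the other arrays. The differences of Uqcr10, Uqcr11 and Uqcrq between the Nras populations were 0.92 ± 1.19, 2.18 ± 1.05 and 1.86 ± 0.97. Without the pair they were -1.56, 0.92 and 0.12, so that Uqcr10 turned sign.

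Uqcrc2 and Uqcrb were not low on that array. Uqcrc2 read 3283, 3345 and 3083 for wild-type GFP-, 3242, 1647 and 2513 for wild-type GFPhigh, 5668, 4155 and 2998 for Nras GFP- and 4509, 5505 and 3935 for Nras GFPhigh. Uqcrc2, core protein 2, was higher in every Nras GFPhigh library than in any wild-type library, by 0.95 ± 0.31 (adjusted p = 0.479) against wild-type GFPhigh; it was 0.83 without the pair and 0.82 after quantile normalization. In GFP- HSCs the genotype difference was 0.35 ± 0.31, and over both populations 0.65 ± 0.22 (adjusted p = 0.579), with 0.13 and 0.48 without the pair. Core protein 1, Uqcrc1, varied from 107 to 2952 with its lowest and highest signals both in Nras GFPhigh. Uqcrb, a small ubiquinone-binding subunit, read 15853 and 21721 on Nras GFPhigh replicates 1 and 2 and 9065 to 12657 on the other 10; its difference of 0.50 ± 0.22 between the Nras populations was 0.33 without the pair and -0.078 after quantile normalization. The median of the 8 complex III members was 0.23 for GFPhigh minus GFP- in wild-type (6 higher) and 0.75 in Nras (8 higher), and -1.39 for Nras minus wild-type in GFP- HSCs. Without the pair the last 2 were 0.19 (5 higher) and -0.049.

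Complex IV, cytochrome c oxidase, has several nuclear-encoded subunits that exist as paired isoforms, a broadly expressed form and a form found mainly in heart and skeletal muscle. The muscle forms are given first, for their signals on Nras GFPhigh replicate 2. Cox7a1 read 39.7, 210 and 40.8 for wild-type GFP-, 23.1, 4.6 and 51.1 for wild-type GFPhigh, 7.9, 1.9 and 24 for Nras GFP- and 259, 6471 and 24.6 for Nras GFPhigh. Cox6a2 read 182, 245 and 223 for wild-type GFP-, 199, 253 and 167 for wild-type GFPhigh, 124, 164 and 146 for Nras GFP- and 344, 3972 and 209 for Nras GFPhigh. Cox8b read 30.4, 77.5 and 61.7 for wild-type GFP-, 26.7, 92.6 and 49.1 for wild-type GFPhigh, 149, 9.9 and 45.6 for Nras GFP- and 87.3, 4565 and 53.8 for Nras GFPhigh. Cox7a1, Cox6a2 and Cox8b are the muscle forms, and Nras GFPhigh replicate 2 was the only array on which any of them exceeded 344. Cox8c, a form known from testis, was also highest there, at 879.6 against 111 to 422. The 3 Nras GFP- signals of Cox7a1 lay below the median signal of their arrays (44, 51.9 and 95.7), so no fold is given for it (adjusted p = 0.266 between the Nras populations). GFPhigh minus GFP- in Nras was 2.20 ± 0.95 (adjusted p = 0.394) for Cox6a2 and 2.77 ± 1.51 (adjusted p = 0.485) for Cox8b, and 2 of the 3 Nras GFP- signals of Cox8b also lay below those medians. Without the pair of arrays the difference was 0.79 for Cox6a2. No fold is given there for Cox8b, whose remaining Nras GFP- signals (9.9 and 45.6) lay below those medians. With these 3 genes left out, the member median of GFPhigh minus GFP- in Nras was 0.50, as with them.

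The broadly expressed partners did not share that pattern to the same size. Cox6a1 read 3060, 3068 and 3832 for wild-type GFP-, 5195, 4688 and 2952 for wild-type GFPhigh, 2015, 4839.5 and 4824 for Nras GFP- and 3072, 3812 and 1582 for Nras GFPhigh. Cox7a2 read 3329, 3073 and 3970.2 for wild-type GFP-, 3665, 1954 and 3954 for wild-type GFPhigh, 669.9, 1991 and 3919.6 for Nras GFP- and 473, 7897 and 1975 for Nras GFPhigh. Cox8a read 661, 1713 and 1282 for wild-type GFP-, 2163, 2428 and 1215 for wild-type GFPhigh, 443, 1029 and 1274 for Nras GFP- and 1284, 385 and 991 for Nras GFPhigh. On Nras GFPhigh replicate 2, Cox7a2 was the highest of 12, Cox6a1 was inside its range elsewhere, and Cox8a was the lowest of 12. Their differences between the Nras populations were -0.45 ± 0.41 for Cox6a1, 0.17 ± 0.84 for Cox7a2 and -0.082 ± 0.65 for Cox8a. Without the pair they were -1.13, -1.53 and -0.022, with adjusted p of 0.311 for Cox6a1 and 0.387 for Cox7a2, whose sign turned. Cox6b2, another testis form, read 36.6 to 1357 over the 12 arrays and differed by 0.23 ± 1.03. Its broad counterpart Cox6b1 differed by 0.42 ± 0.44, and without the pair these turned to -1.11 for Cox6b2 and -0.52 for Cox6b1. Cox4i2 and Cox7b2 did not pass the filter, with 13.2 to 97.2 and 0.6 to 28.7.

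**Figure D3:**
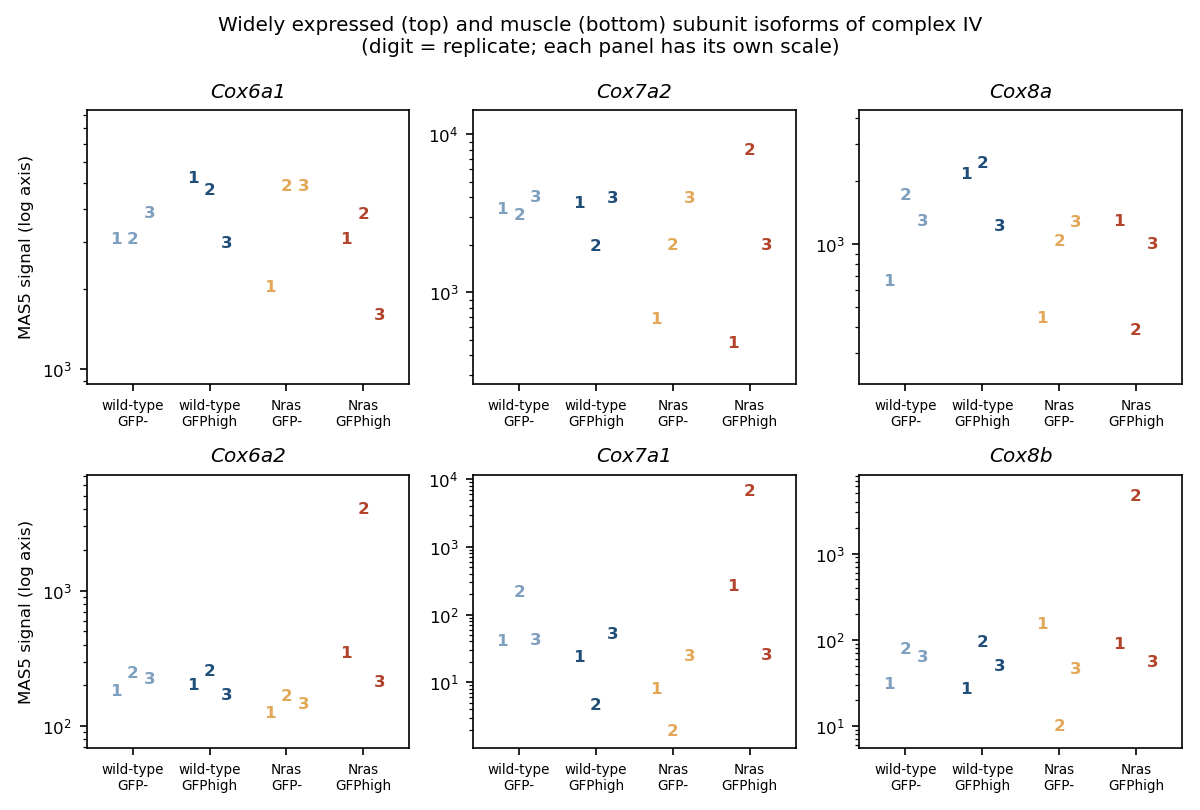
MAS5 signal (log scale) on the 12 arrays, by group, of the broadly expressed complex IV subunits Cox6a1, Cox7a2 and Cox8a (top) and of their muscle isoforms Cox6a2, Cox7a1 and Cox8b (bottom). In each lower panel a single Nras GFPhigh point, replicate 2, lies far above the rest, at 3972 for Cox6a2, 6471 for Cox7a1 and 4565 for Cox8b.

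The 250 bases upstream of the transcription start are given for 5 of these broad and muscle forms, from RefSeq annotation on GRCm38.p6, 5′ to 3′ on the gene's strand: Cox6a1 (chr5:115348959-115349208, minus strand), Cox7a2 (chr9:79759854-79760103, minus strand), Cox8a (chr19:7217617-7217866, minus strand), Cox7a1 (chr7:30183921-30184170, plus strand) and Cox8b (chr7:140900447-140900696, minus strand). Capitals mark matches, on either strand, to the NRF1 core CGCATGCG, its looser form CGCNTGCG, the ETS motif CCGGAAG or the E-box CAGCTG.
Cox6a1: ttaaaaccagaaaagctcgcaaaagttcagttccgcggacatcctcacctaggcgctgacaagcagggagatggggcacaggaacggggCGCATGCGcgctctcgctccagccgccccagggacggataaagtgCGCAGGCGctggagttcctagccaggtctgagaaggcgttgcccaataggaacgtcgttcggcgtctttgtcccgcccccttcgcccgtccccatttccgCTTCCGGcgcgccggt
Cox7a2: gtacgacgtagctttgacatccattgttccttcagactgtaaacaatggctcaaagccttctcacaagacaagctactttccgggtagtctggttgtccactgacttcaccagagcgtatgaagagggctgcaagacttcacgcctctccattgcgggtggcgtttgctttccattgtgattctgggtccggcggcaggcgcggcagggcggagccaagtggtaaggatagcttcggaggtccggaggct
Cox8a: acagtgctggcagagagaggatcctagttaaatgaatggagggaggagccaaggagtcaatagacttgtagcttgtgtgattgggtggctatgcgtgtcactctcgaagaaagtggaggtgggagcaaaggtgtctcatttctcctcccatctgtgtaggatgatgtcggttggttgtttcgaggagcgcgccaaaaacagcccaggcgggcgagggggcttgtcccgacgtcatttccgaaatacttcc
Cox7a1: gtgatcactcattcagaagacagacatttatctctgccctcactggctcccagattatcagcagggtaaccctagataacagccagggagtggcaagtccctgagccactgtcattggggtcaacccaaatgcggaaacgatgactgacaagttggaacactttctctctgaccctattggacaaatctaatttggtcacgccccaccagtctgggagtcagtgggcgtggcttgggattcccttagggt
Cox8b: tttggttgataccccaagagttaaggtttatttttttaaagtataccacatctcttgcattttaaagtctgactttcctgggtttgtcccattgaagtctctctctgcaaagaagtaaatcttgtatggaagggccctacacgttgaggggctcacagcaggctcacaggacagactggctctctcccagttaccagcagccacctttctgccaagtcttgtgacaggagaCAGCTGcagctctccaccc
The printed bases of Cox6a1 held the NRF1 core 161 bases before the start, a looser match at 116 and an ETS match at 16, and those of Cox8b an E-box at 19. The printed bases of Cox7a2, Cox8a and Cox7a1 held no whole match to these letters. An ETS match of Cox8a begins 5 bases before the start and runs past the last printed base, and a second lies 32 bases after the start, so that Cox8a counts among the members with that motif in the longer windows described next. A second E-box of Cox8b lies 16 bases after the start. Cox6a2 is named only. A match is a description of the letters and was not tested as a binding site.

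Over all members, 74 of 90 matched the RefSeq promoter table, with windows from 250 bases before to 50 after the start. The NRF1 core was in 10 of 74 members (13.5%), beside 2.07% of all 27025 genes of the table and 2.77% of protein-coding genes. The looser form, which includes the core, was in 27 (36.5%, beside 9.22% of all genes and 12.5% of coding genes). NRF1 and the ETS-family factor GABP are known regulators of respiratory genes, and the ETS motif was in 19 members (25.7%, beside 9.93% and 12.9%). The YY1 motif AAGATGGC was in 10 (13.5%, beside 3.19% and 3.57%), and the ERR motif TCAAGGTCA in 2 (2.7%, beside 0.466% and 0.377%). Among motifs added after seeing the data, the muscle-type MEF2 core TAAAAATA was in none of the 74 (3.09% of all genes) and the E-box in 6 (8.11%, beside 18.3%). The shares carry no test, and the median GC content was 59% for member promoters, 56.3% for coding genes and 52.7% for all genes.

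Of the 10 accessory subunits of complex IV, Cox5a and Cox5b both sit on the matrix side of the enzyme. Cox5a read 3445, 4741 and 3100.1 for wild-type GFP-, 1710.3, 1646 and 2915 for wild-type GFPhigh, 17.3, 1663 and 3891 for Nras GFP- and 427, 5025 and 2073 for Nras GFPhigh. All 3 probe sets of Cox5a were low on Nras GFP- replicate 1. In wild-type mice every GFPhigh value of Cox5a was below every GFP- value, a difference of -0.88 ± 1.52 (adjusted p = 1), with a standard error that pools the spread of all 4 groups. Cox5b read 5740, 8236 and 5760.1 for wild-type GFP-, 6099, 4973 and 5678 for wild-type GFPhigh, 5169, 6888 and 6738 for Nras GFP- and 9209.7, 15153 and 6720.2 for Nras GFPhigh. Cox5b was highest on Nras GFPhigh replicates 2 and 1, and replicate 3 lay among the other groups. Its genotype difference in GFPhigh HSCs was 0.82 ± 0.26 (adjusted p = 0.478), its population difference in Nras 0.66 ± 0.26 (adjusted p = 0.359) and its interaction 0.88 ± 0.37 (adjusted p = 0.956); without the pair these were 0.50, 0.21 and 0.43. Cox6c had 0.62 ± 0.24 between the Nras populations and 0.20 without the pair, and Cox4i1, the largest nuclear-encoded subunit, 0.51 ± 0.29 and -0.054. Cox7c, with signals of 18.8 to 1118, had 0.69 ± 1.16 and 1.89.

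Cox7a2l is a relative of Cox7a2 that takes part in joining complexes III and IV into supercomplexes, and it had the smallest p of all members. Cox7a2l read 7383, 9682 and 8341 for wild-type GFP-, 9216, 9478 and 8768 for wild-type GFPhigh, 8065, 7601 and 8159 for Nras GFP- and 14812, 12478 and 10639.5 for Nras GFPhigh. The 3 Nras GFPhigh libraries were the 3 highest of the 12, with no overlap, and the other groups lay within or near the range of wild-type GFP-. GFPhigh minus GFP- was 0.66 ± 0.14 (adjusted p = 0.129) in Nras and 0.12 ± 0.14 (adjusted p = 1) in wild-type, Nras minus wild-type was 0.45 ± 0.14 (adjusted p = 0.461) in GFPhigh and -0.085 ± 0.14 in GFP-, and the interaction was 0.54 ± 0.20 (adjusted p = 0.956). Without the pair the GFPhigh genotype difference was 0.46 and the interaction 0.55. Its 3 probe sets gave 0.66 to 0.72 between the Nras populations, and leaving out the pair of arrays gave 0.67 (adjusted p = 0.274). The size depended on scaling: it was 0.23 after quantile normalization and 0.29 after median centring, and the genotype difference in GFPhigh turned to -0.028 after quantile normalization. With Nras GFPhigh replicate 3 left out, the Nras difference was 0.78 and passed (adjusted p = 0.0263). The related Ndufa4l2, known as a hypoxia-responsive protein, ranged from 50.7 to 238, with 0.14 ± 0.73 between the Nras populations and 0.074 without the pair. Over the 17 tested members of complex IV the median was -0.015 in wild-type (8 higher in GFPhigh), 0.62 in Nras (15 higher) and 0.074 (9 higher) without the pair.

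**Figure D4:**
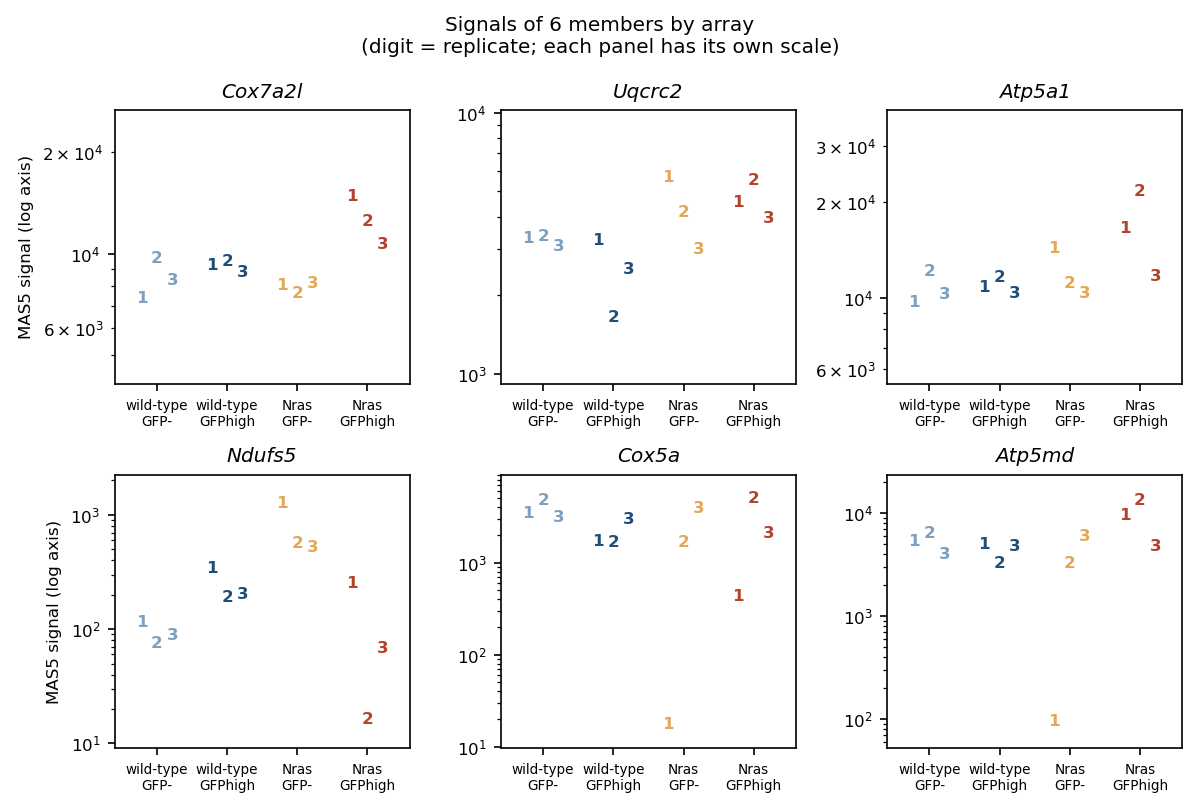
MAS5 signal (log scale) on the 12 arrays, by group, of Cox7a2l, Uqcrc2, Atp5a1, Ndufs5, Cox5a and Atp5md. The 3 Nras GFPhigh points of Cox7a2l are its highest (10639.5 to 14812) and the 3 Nras GFP- points of Ndufs5 are its highest (518 to 1248), whereas Cox5a and Atp5md each have a single low point, Nras GFP- replicate 1, at 17.3 and 94.3.

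Complex V makes ATP with a soluble F1 head driven by a ring of c subunits in the membrane. Atp5a1 is the alpha subunit of the head. Atp5a1 read 9716, 12109 and 10273 for wild-type GFP-, 10829, 11609 and 10334 for wild-type GFPhigh, 14294, 11105 and 10319.7 for Nras GFP- and 16484, 21494 and 11722 for Nras GFPhigh. Nras GFPhigh replicates 1 and 2 were the highest arrays, and replicate 3 was inside the range of the other groups. Nras minus wild-type was 0.56 ± 0.19 (adjusted p = 0.5) in GFPhigh and 0.35 ± 0.13 (adjusted p = 0.597) over both populations, and GFPhigh minus GFP- in Nras was 0.45 ± 0.19 (adjusted p = 0.38). Without the pair these were 0.35, 0.18 and 0.38, and quantile normalization turned them to -0.065, -0.029 and -0.13. The gamma subunit Atp5c1 had 0.71 ± 0.29 between the Nras populations and 0.12 without the pair. The delta and epsilon subunits Atp5d and Atp5e had -0.11 ± 0.42 and 0.72 ± 0.79, against -0.013 ± 0.42 and 0.15 ± 0.79 in wild-type. Without the pair both Nras values turned sign, to 0.31 for Atp5d and -1.05 (adjusted p = 0.36) for Atp5e.

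The c subunit of the rotating ring is encoded by 3 genes whose mature proteins are known to be the same. Atp5g3 read 5612, 6681 and 5567 for wild-type GFP-, 5762, 6307 and 6296 for wild-type GFPhigh, 4274, 7032 and 6807 for Nras GFP- and 2842, 11916 and 6333 for Nras GFPhigh. Atp5g3 was steady in wild-type mice and spread over its whole range within Nras GFPhigh. Atp5g1 was 121 to 277 on the 7 arrays other than Nras GFP- replicates 1 and 2 and the 3 Nras GFPhigh arrays, which ranged from 17.9 to 680. Atp5g2 was low on Nras GFP- replicate 1, at 209 against 657 to 1159.5. There 2 of 3 probe sets of Atp5g2 and 1 of 2 of Atp5g1 were at least 4-fold below the median of the other arrays. GFPhigh minus GFP- in Nras was 0.78 ± 1.21 for Atp5g1, 0.50 ± 0.65 for Atp5g2 and 0.023 ± 0.39 for Atp5g3. Without the pair all 3 turned sign, to -0.89, -0.48 and -0.71.

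Among the 9 stalk and membrane subunits, Atp5md, a small subunit linked to the pairing of ATP synthase, had the lowest p between the Nras populations. Atp5md read 5253, 6346 and 3938 for wild-type GFP-, 4924, 3229 and 4717 for wild-type GFPhigh, 94.3, 3222 and 5872 for Nras GFP- and 9479, 13042 and 4691 for Nras GFPhigh. Its 2.78 ± 1.09 (adjusted p = 0.355) came to 0.62 without the pair of arrays. Atp5h read 7461, 10487 and 8329 for wild-type GFP-, 9252, 9439 and 8726 for wild-type GFPhigh, 10381, 8549.9 and 9272 for Nras GFP- and 12777, 18587 and 9171 for Nras GFPhigh. Atp5h, the peripheral-stalk subunit d, was highest on Nras GFPhigh replicates 1 and 2, with replicate 3 among the other groups. It differed by 0.47 ± 0.21 (adjusted p = 0.401) between the Nras populations, by 0.28 without the pair and by -0.020 after quantile normalization. The arrays on which Ndufb7, Uqcrb, Cox5b, Atp5a1 and Atp5h were highest, Nras GFPhigh replicates 1 and 2, are those on which the summed granulocyte, monocyte, erythroid and stromal markers were also highest, and their part in these values was not tested. Atp5l, subunit g, had -0.50 ± 0.72 in wild-type and 0.42 ± 0.72 in Nras, which turned to -0.62 without the pair. Atp5k, subunit e, read 13437 on Nras GFPhigh replicate 2 and 2391 to 4724 elsewhere. The median of the 17 members was -0.017 in wild-type (6 higher in GFPhigh) and 0.45 in Nras (13 higher), and -0.24 (7 higher) without the pair.

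The members not described singly are given by their ranges. The 18 other tested members of complex I had differences of -0.43 to 1.31 between the Nras populations (14 higher in GFPhigh) and of -1.17 to 0.79 in wild-type. Without the pair the Nras differences ran from -1.56 (Ndufb8) to 0.77 (Ndufv3), with 8 higher in GFPhigh. The 5 other tested members of complex V had differences of -0.79 to 0.58 between the Nras populations (3 higher in GFPhigh) and of -0.24 to 0.040 in wild-type. Without the pair the Nras differences ran from -0.97 (Atp5mpl) to 0.00060 (Atp5j), with 1 higher in GFPhigh. Ndufa4, long counted with complex I and now placed in complex IV, had 0.78 ± 0.45 in Nras, 0.27 without the pair, and -0.23 ± 0.45 in wild-type.

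**Figure D5:**
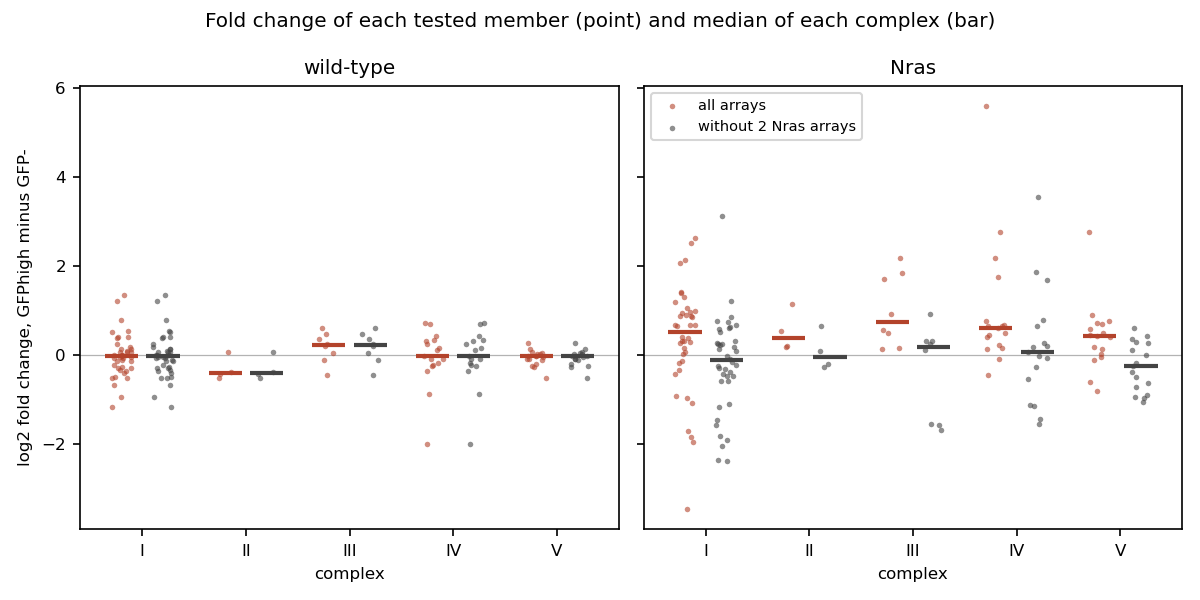
Log2 difference GFPhigh minus GFP- of each tested member, by complex, in wild-type and in Nras mice, from all arrays and without Nras GFPhigh replicate 2 and Nras GFP- replicate 1; the horizontal marks are medians. Cox7a1 and Ndufaf3, with Nras GFP- signals at or below the medians of their arrays, are drawn at fitted values that are no measured fold. The same holds for Cox8b in wild-type mice and, without the pair, in Nras mice. In Nras the complex medians lie between 0.38 and 0.75 with all arrays and between -0.24 and 0.19 without the pair.

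Other genes of the pathway are given for the same comparison, GFPhigh minus GFP- in Nras mice, in which limma passed 0 genes of each list at an adjusted p of 0.05. An unadjusted p under 0.05 was reached by 12.2% of all genes with all arrays and by 12% without the pair, and values in parentheses are those without the pair. Of the partners that carry electrons, metabolites or ions beside the complexes, 11 of 25 were higher in GFPhigh (7 without the pair), with a median of -0.073 (-0.57) and 3 at an unadjusted p under 0.05 (7). Cytochrome c (Cycs) had 0.66 ± 0.38 (-0.030) and cytochrome c1 (Cyc1), the haem subunit of complex III, -0.73 ± 0.65 (-1.75). The voltage-dependent channels Vdac1 and Vdac2 had 0.48 ± 0.19 (0.38) and -0.53 ± 0.21 (-0.57). The muscle-type ADP/ATP carrier Slc25a4 had 0.93 ± 0.39 (0.28), with 12969.5 on Nras GFPhigh replicate 2 and 2777 to 5152 elsewhere. Of the assembly and synthesis factors, 16 of 41 were higher in GFPhigh (12 without the pair), with a median of -0.34 (-0.74) and 6 at an unadjusted p under 0.05 (5); those of smallest p were Coa5, at -1.38 ± 0.40 (-1.34), and the copper chaperone Cox17, at 1.10 ± 0.41 (0.57). Of the enzymes of the tricarboxylic acid cycle and pyruvate dehydrogenase, 5 of 19 were higher in GFPhigh (4 without the pair), with a median of -0.23 (-0.72) and 3 at an unadjusted p under 0.05 (4), led by malate dehydrogenase Mdh2 at 0.62 ± 0.20 (0.29) and the pyruvate dehydrogenase component Pdhx. Pdhx read 2.4, 32.5 and 57 in Nras GFP-, each below the median of its array, and 97.4, 324 and 115 in Nras GFPhigh, so no fold is given.

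Of the regulators of mitochondrial biogenesis, 7 of 23 were higher in GFPhigh (6 without the pair), with a median of -0.24 (-0.79) and 6 at an unadjusted p under 0.05 (6). Nrf1 and Gabpa, whose motifs are described above, had -0.68 ± 0.67 (-0.81) and -0.33 ± 0.41 (-0.036), and the coactivator-like Pprc1 -2.37 ± 0.67 (-2.72). The nuclear receptor Esrra had 2.76 ± 0.83 (2.99). On Nras GFP- replicate 1, where many members were low, the coactivator Ppargc1a read 2978 against 2.7 to 294 elsewhere, and the mitochondrial DNA packaging factor Tfam 155 against 994 to 3489; their part in the members' values was not tested. Of the glycolysis genes, 10 of 24 were higher in GFPhigh (8 without the pair), with a median of -0.17 (-0.27) and 4 at an unadjusted p under 0.05 (3), and lactate dehydrogenase Ldha had 0.062 ± 0.23 (0.062). The glucose transporter Slc2a3 had -1.61 ± 0.45 (-1.80). The pyruvate dehydrogenase kinase Pdk4 read 11.2, 26 and 44.6 in Nras GFP-, also below those medians, and 67.2, 5358 and 228 in Nras GFPhigh. Both lists of ribosomal proteins were added after seeing the data. Of the mitochondrial ribosomal proteins, 35 of 76 were higher in GFPhigh (30 without the pair), with a median of -0.15 (-0.27) and 6 at an unadjusted p under 0.05 (11). Of the cytoplasmic ones, 37 of 42 were higher in GFPhigh (36 without the pair), with a median of 0.55 (0.46) and 25 at an unadjusted p under 0.05 (20). Summed signals of the cytoplasmic ones were 474228 and 487756 on Nras GFPhigh replicates 1 and 2, and 322161 on replicate 3. In Nras GFP- libraries they were 282520 to 298195, and in wild-type libraries 250245 to 339402. Leaving out the pair keeps replicate 1. Replicates 1 and 2 also had the highest summed granulocyte, monocyte, erythroid and stromal markers, whose part was not tested. Of the cell cycle genes, which bear on the labels cycling and quiescent, 2 of 23 were higher in GFPhigh (2 without the pair), with a median of -1.13 (-1.50) and 11 at an unadjusted p under 0.05 (8) over both genotypes, where 8.87% of all genes reached that p and 10.6% without the pair.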

How the data were processed

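Total RNA of 12 samples of sorted HSCs was labelled as biotinylated cRNA and read on Affymetrix arrays, per the labels' protocols. The deposited values are intensity in linear MAS5 units. The software is named, with no version, per the submitters' processing notes. Trimmed of 2% of probe sets at either end, every array averaged 500.

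After 3 zero values had been raised to 0.1, signals were log2-transformed without further normalization. Probe sets with several symbols (932) or none (9160) and 64 controls were left out of 45101. Ndufa11 and Ndufs6 occur only in probe sets of several symbols. A gene was tested if above its array's median on at least 3 arrays. One limma fit (version 3.58.1, R 4.3.3), with a mean per group over all 12 samples and an intensity trend, gave 7 comparisons, with Benjamini-Hochberg adjustment over 12085 genes. Differences are log2 ± SE from that fit, and p values are two-sided. It was tested on simulated data. Motifs and figures used Python 3.11.15 and matplotlib 3.10.9. Subunit proteins were not analysed here.

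The members and lists were chosen with earlier results of these data known. Named were, besides core subunits, isoforms, untested members and assembly factors, the 2 members of smallest p of each complex in each comparison and up to 2 genes of a list; Atp5k, Ndufb7, members at the ends of a range and members named for a place on a single array were chosen after their values were seen. Alternatives were median centring, quantile normalization, array weights, a stricter filter and none, pseudocounts, other choices of probe set, no intensity trend, the replicate number as a block, leaving out arrays, only the groups compared, only replicates 1 and 2, only structural subunits, and an adjusted p of 0.1. Leaving out Nras GFPhigh replicate 2 and Nras GFP- replicate 1 together, leaving out the muscle isoforms, the E-box and MEF2 motifs, and the muscle and ribosomal lists were added after seeing the data. The number of arrays limits the precision, and p values measure the spread between samples labelled as biological replicates.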

Additional observations from a re-analysis of the deposited data

How the results depend on the processing

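The limits of these data are 3 samples a group, 2 Nras arrays that stand apart, and signals that can be compared only between samples of one gene. At this size no member passed in any comparison. The array weights of limma were below 0.6 on 4 arrays. These were Nras GFP- replicate 1 (0.308), Nras GFPhigh replicates 1 (0.403) and 2 (0.503), and wild-type GFPhigh replicate 2 (0.522). Across the alternatives, the number of members past an adjusted p of 0.05 was 0 apart from GFPhigh minus GFP- in Nras without Nras GFPhigh replicate 3, where Cox7a1, Cox7a2l and Uqcrb passed (range 0 to 3 over the single arrays left out). The Nras GFPhigh arrays kept there, replicates 1 and 2, had the highest summed granulocyte, monocyte, erythroid and stromal markers, and replicate 2 the muscle transcripts. Their part was not tested. Of 200 member medians under alternatives, 187 moved by less than 1 SD and 13 by more. The SD is that of the array medians within groups, pooled, at 0.344, and it includes the pair of arrays. A median cannot move where a left-out array is not in its comparison, so the count is no measure of steadiness. Of the complex medians, 935 moved by less than the SD of their complex and 65 by more. The median of GFPhigh minus GFP- in Nras was 0.14 under median centring, -0.087 without the 4 arrays of low weight and -0.039 without Nras GFPhigh replicate 2 and Nras GFP- replicate 1. That of the interaction was -0.010 under median centring, -0.093 without the 4 arrays, 0.96 with only replicates 1 and 2, and -0.15 without the pair. That of Nras minus wild-type in GFP- was 0.27 under median centring, -0.027 under array weights, 0.0064 without the 4 arrays or the pair, and -0.51 to 0.0064 over the single arrays left out. That of Nras minus wild-type over both populations was 0.30 under median centring. Median centring moves every gene of a comparison by the same amount, by construction, so the distance between members and all genes stays as it was. The median of all genes became -0.28 for GFPhigh minus GFP- in Nras and -0.42 for the interaction. It became 0.47 for Nras minus wild-type in GFP- and 0.23 for Nras minus wild-type over both populations. For the other changes the cause was not tested.

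The sign changes listed here are those of a selection of members in each comparison, and other members also turned sign. Under median centring, 52 of 86 members were higher for GFPhigh minus GFP- in Nras, against 69 without it. For Nras minus wild-type in GFP-, 59 were higher under median centring, against 27 without it. Among the turns not listed, GFPhigh minus GFP- in Nras became -0.17 for Sdhd and -0.20 for Cox7a2 under median centring. Under median centring every gene moves by the same amount in a comparison, by construction. For the other cases the cause was not tested. Under mean over probe sets, Nras minus wild-type over both populations was -0.23 for Atp5h, GFPhigh minus GFP- in wild-type was -0.0079 for Cox8a, GFPhigh minus GFP- over both genotypes was -0.33 for Sdha and -0.016 for Uqcrb. Under median centring, GFPhigh minus GFP- in Nras was -0.16 for Sdha, Nras minus wild-type in GFP- was 0.13 for Sdhd, Nras minus wild-type over both populations was 0.22 for Sdhd, the interaction was -0.072 for Uqcrb. Under quantile normalization, GFPhigh minus GFP- over both genotypes was -0.10 for Atp5a1, -0.011 for Atp5h, -0.11 for Sdha and -0.066 for Uqcrb, Nras minus wild-type in GFPhigh was -0.065 for Atp5a1, -0.033 for Atp5h, -0.028 for Cox7a2l, -0.094 for Sdha and -0.13 for Uqcrb, Nras minus wild-type over both populations was -0.029 for Atp5a1, -0.024 for Atp5h and -0.12 for Cox7a2l, GFPhigh minus GFP- in Nras was -0.21 for Sdha and -0.078 for Uqcrb, the interaction was -0.023 for Uqcrb. Without shared probe sets, Nras minus wild-type in GFPhigh was -0.10 for Atp5h, Nras minus wild-type over both populations was -0.77 for Atp5h, GFPhigh minus GFP- in wild-type was -0.029 for Cox8a, GFPhigh minus GFP- in Nras was -0.075 for Uqcrb, GFPhigh minus GFP- over both genotypes was -0.31 for Uqcrb. Without the 4 arrays of low weight, GFPhigh minus GFP- in Nras was -0.12 for Atp5c1 and -0.13 for Uqcrh, GFPhigh minus GFP- over both genotypes was -0.0059 for Cox6c, -0.30 for Uqcr11 and -0.026 for Uqcrb, Nras minus wild-type over both populations was 0.0099 for Sdhd, Nras minus wild-type in GFPhigh was -0.021 for Uqcrb, the interaction was -0.033 for Uqcrh. With single arrays left out, GFPhigh minus GFP- in Nras ranged from -0.058 to 0.39 for Sdha, and Nras minus wild-type over both populations from -0.34 to 0.0050 for Sdhd.

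Replicates with the same number deviated together weakly at most. Over 18 same-number pairs the correlation was -0.044 to 0.15, with a median of 0.042 against -0.012 for other pairs. The 3 over 0.1 were all between arrays of replicate 3. With the replicate number as a block, the member median of GFPhigh minus GFP- in Nras was 0.50 and 0 members passed in each comparison, as without it.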
